A study of Mus musculus with 12 samples.

Results

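Collagen prolyl and lysyl hydroxylases were examined as a family of 10 genes, P3h1, P3h2, P3h3, P3h4, P4ha1, P4ha2, P4ha3, Plod1, Plod2 and Plod3, chosen by their symbols among the 55487 genes counted. All 10 were found once in the annotation and all 10 passed the filter on low counts. The libraries came from C2C12 cells, mouse myoblasts of an established line that fuse and form myotubes in low serum. After differentiation over 5 days (2% horse serum), the myotubes spent 24 h in DMEM with penicillin and streptomycin and either 4% horse serum or 4% STEM, a secretome without cells that partially differentiated human embryonic stem cells released, with 6 libraries per group. STEM replaced horse serum, so the addition of the one and the removal of the other cannot be told apart, and the cells were 1 line without the other cell types of muscle. Whether the 6 libraries of a group came from separate cultures is not stated in the labels, so p-values measure the spread between these libraries only.

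Collagen chains are hydroxylated in the endoplasmic reticulum before they fold into a triple helix, by enzymes that need iron, ascorbate and 2-oxoglutarate. Prolyl 4-hydroxylase is a tetramer of alpha subunits (P4ha genes) and the protein disulfide isomerase P4hb, and its product stabilizes the helix. Lysyl hydroxylases (Plod genes) prepare lysines for sugar attachment and for the crosslinks that lysyl oxidases start, and prolyl 3-hydroxylases (P3h genes) modify few prolines and act in complexes with chaperones. Several genes of this family are known targets of the hypoxia-inducible factor HIF.

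Because hypoxia response elements are the known route by which HIF acts on this family, the promoters of its genes were read as the 250 bases before the annotated start, for the 7 members that matched the RefSeq table of GRCm38.p6. P3h2, P3h4 and Plod2 are named only. The core letters of the site that HIF binds, ACGTG or GCGTG, were searched on both strands and are in capitals (CACGT and CACGC are the same letters on the opposite strand). At least 1 such match was present in 38.6% of the 32851 promoters of this length in the table, and ACGTG is also part of the E-box CACGTG. The first 3 promoters are shown because their genes moved with the HIF-induced genes over the libraries. The last 2 belong to genes that did not, and were shown because they held matches. P3h3 and P4ha3 did not move with the HIF-induced genes either, and their promoters held no match and are not printed.
P4ha1 promoter (chr10:59323046-59323295, plus strand): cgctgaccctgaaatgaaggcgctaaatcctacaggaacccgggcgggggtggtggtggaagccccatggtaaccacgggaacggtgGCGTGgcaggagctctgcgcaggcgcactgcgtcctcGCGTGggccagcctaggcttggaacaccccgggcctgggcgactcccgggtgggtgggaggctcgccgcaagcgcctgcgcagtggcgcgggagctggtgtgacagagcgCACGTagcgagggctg
P4ha2 promoter (chr11:54100674-54100923, plus strand): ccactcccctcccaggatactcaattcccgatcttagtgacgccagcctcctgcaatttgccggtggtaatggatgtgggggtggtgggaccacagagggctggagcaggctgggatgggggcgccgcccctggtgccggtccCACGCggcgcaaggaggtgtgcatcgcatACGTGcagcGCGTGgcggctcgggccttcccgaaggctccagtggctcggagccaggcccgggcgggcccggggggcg
Plod1 promoter (chr4:147936777-147937026, minus strand): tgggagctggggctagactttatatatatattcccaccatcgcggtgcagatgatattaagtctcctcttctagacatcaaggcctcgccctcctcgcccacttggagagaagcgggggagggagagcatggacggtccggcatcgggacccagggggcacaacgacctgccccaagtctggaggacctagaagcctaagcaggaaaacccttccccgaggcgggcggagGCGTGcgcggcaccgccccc
Plod3 promoter (chr5:136986769-136987018, plus strand): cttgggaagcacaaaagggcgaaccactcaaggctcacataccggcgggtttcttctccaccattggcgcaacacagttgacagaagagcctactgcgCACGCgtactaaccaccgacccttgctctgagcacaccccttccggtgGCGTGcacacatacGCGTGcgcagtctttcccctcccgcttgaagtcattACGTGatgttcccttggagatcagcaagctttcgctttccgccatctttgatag
P3h1 promoter (chr4:119232665-119232914, plus strand): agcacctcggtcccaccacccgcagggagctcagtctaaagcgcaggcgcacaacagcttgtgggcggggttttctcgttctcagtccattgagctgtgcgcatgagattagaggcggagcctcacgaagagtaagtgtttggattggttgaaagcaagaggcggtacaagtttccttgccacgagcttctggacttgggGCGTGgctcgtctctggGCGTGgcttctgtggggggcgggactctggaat
P4ha1 held 3 matches, P4ha2 3 and Plod1 1, while Plod3 held 4 and P3h1 2 at the start shown. A second start of P3h1 in the RefSeq table, not shown, had 2 ACGTG matches in its window. In P4ha2 an ACGTG lay 78 to 74 bases before the RefSeq start and a GCGTG 69 to 65 bases before it. This P4ha2 window, from 54100674, lies inside the gene in the GENCODE annotation used here for coordinates, where P4ha2 begins at 54100095. The promoters of P3h3 and P4ha3 held 0 matches in this window. A match is a string of letters, and binding was not measured.

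Deposited counts summed to between 13285472 and 24536264 per library. Horse serum library 6 stood apart from the other 11 libraries before any test of the family. It had the lowest summed level of 10 myotube markers (11811 CPM, read counts scaled to a common, normalized library total, against 18449 to 20668 CPM in the other horse serum libraries and 16229 to 21634 CPM with STEM). It was below the other horse serum libraries for 10 of these 10 markers, against 33.1% of all genes tested, and above them for 35.8% of all genes. In such bulk RNA, fewer cells of a kind and less RNA per cell cannot be told apart. Its 4 cycling cell markers summed to 909 CPM, against 547 to 834 CPM in the other horse serum libraries and 413 to 504 CPM with STEM. Of these 4, 2 were above the other horse serum libraries. Markers of macrophages and leukocytes summed to at most 5.28 CPM in any library and those of endothelial cells to at most 0.353 CPM, while the undifferentiated myoblast markers Pax7 and Myf5 summed to 39.8 to 56.1 CPM. In library 6 both Pax7 and Myf5 were below the other horse serum libraries. Ptprc, which defines leukocytes, had at most 1 count in a library. The part of library 6 in the differences of the family was measured by leaving it out.

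**Figure D1:**
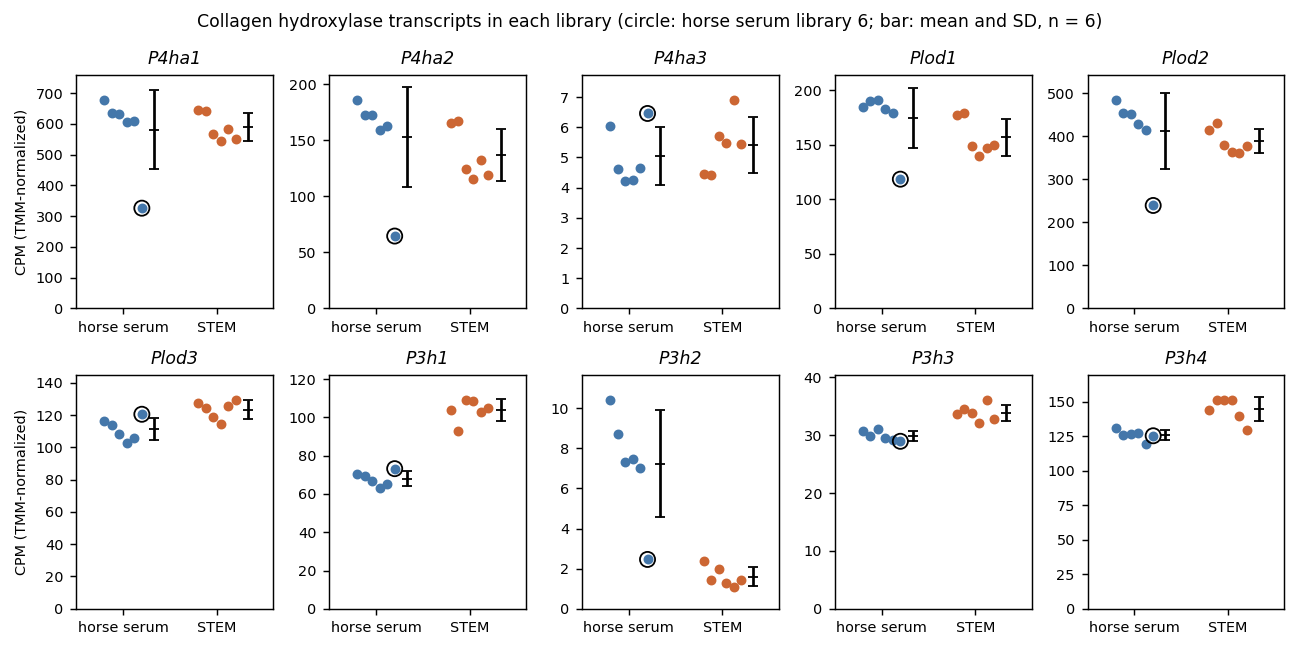
Level of each collagen hydroxylase transcript in CPM (vertical axes, each from 0) in the 6 horse serum and 6 STEM libraries; points are libraries, the ringed point is horse serum library 6, and bars give the mean and SD. P3h1 lies between 63.1 and 73.2 CPM with horse serum and between 93.0 and 109 CPM with STEM, and the ringed library lies below all others for P4ha1, P4ha2, Plod1 and Plod2.

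Of the 10 hydroxylase genes, 5 passed an adjusted p of 0.05 between the media, 4 of them higher with STEM (P3h1, P3h3, P3h4 and Plod3) and 1 lower (P3h2). Of all 14175 genes tested, 36.4% were called in this comparison, 18.9% higher and 17.4% lower. Over the family, the median log2 fold change was 0.05, against 0.01 for all genes tested. Every prolyl 3-hydroxylase family gene was called, while of the 3 lysyl hydroxylases only Plod3 was, and the alpha subunits of prolyl 4-hydroxylase gave 0 calls of 3, and the differences between members were not tested. For these 3 alpha subunit genes the unadjusted p was also above 0.05 in edgeR, and DESeq2 and limma-voom called 0 of them. Without library 6 the number called was 8, because Plod1, Plod2 and P4ha2 were then lower with STEM, while 50.8% of all genes were called.

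P3h1 (ENSMUSG00000028641, chromosome 4, 119232915 to 119248975, plus strand, coordinates of GRCm38 for all genes) encodes the 3-hydroxylase that acts on fibrillar collagens with the cartilage-associated protein Crtap and the cyclophilin Ppib. In the horse serum libraries the lowest, median and highest values of P3h1 were 63.1, 68.0 and 73.2 CPM, and in the STEM libraries 93.0, 104 and 109 CPM. The groups did not overlap, which held for 17.2% of all genes tested. P3h1 rose 1.53-fold with STEM, or by 0.61 ± 0.050 on the log2 scale (± SE, adjusted p = 5.56e-07 in the quasi-likelihood test of edgeR). Library 6 was the highest horse serum library for P3h1, and without it the log2 fold change was 0.63.

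P3h2 (ENSMUSG00000038168, chromosome 16, 25959288 to 26105784, minus strand) encodes a 3-hydroxylase that is known for its action on collagen IV of basement membranes. Its lowest, median and highest values were 2.46, 7.40 and 10.4 CPM with horse serum and 1.10, 1.41 and 2.37 CPM with STEM. P3h2 fell with STEM to 0.227 of its horse serum level (log2 fold change -2.14 ± 0.30, SE, adjusted p = 0.000101 in edgeR), a larger change in size than in 99.7% of the genes tested. Only 2.69% of the tested genes were called with a log2 fold change of at least 1 in either direction, and P3h2 alone of the family was among them. It had few reads, at 18 to 58 counts per STEM library and 48 to 152 counts per horse serum library. The groups did not overlap, but horse serum library 6 at 2.46 CPM lay next to STEM library 7 at 2.37 CPM, while the other 5 horse serum libraries lay between 7.01 and 10.4 CPM. Without library 6 the log2 fold change was -2.32 (standard error 0.17). An antisense gene, Gm4524, shares 1055 of the 3721 exon bases of P3h2, and it had at most 2 counts in any library.

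P3h3 (ENSMUSG00000023191, chromosome 6, 124841089 to 124857752, minus strand) and P3h4 (ENSMUSG00000006931, chromosome 11, 100408456 to 100414836, minus strand) encode proteins that form a complex with lysyl hydroxylase 1, the product of Plod1, in which P3h4 has no enzyme activity of its own. P3h3 had a lowest, median and highest value of 29.0, 29.7 and 31.0 CPM with horse serum and of 32.2, 33.8 and 36.1 CPM with STEM, so that the groups did not overlap. P3h4 had 120, 126 and 131 CPM with horse serum and 129, 148 and 151 CPM with STEM, where STEM library 12 alone lay below the highest horse serum library. P3h3 rose by 0.18 on the log2 scale (standard error 0.047, adjusted p = 0.00732 in edgeR) and P3h4 by 0.20 (standard error 0.046, adjusted p = 0.00339). These rises are close to the median absolute log2 fold change of all tested genes, 0.19. When no filter on low counts was applied, P3h3 was not called (adjusted p = 0.068). P3h3 and P3h4 were both called without library 6, at 0.17 and 0.20.

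P4ha1 (ENSMUSG00000019916, chromosome 10, 59323296 to 59373304, plus strand) was the most abundant transcript of the family. It was measured at a lowest, median and highest value of 326, 620 and 679 CPM with horse serum and of 545, 576 and 645 CPM with STEM. Library 6 held the lowest value and the other 5 horse serum libraries lay between 606 and 679 CPM, a range that STEM libraries 7 and 8 shared while the other 4 STEM libraries lay below it. The log2 fold change of P4ha1 was 0.02 (95% interval -0.28 to 0.32, adjusted p = 0.926 in edgeR). Without library 6 it was -0.10 (95% interval -0.21 to 0.01, adjusted p = 0.11), and upper quartile normalization, like leaving out library 6, 7 or 8, turned its sign.

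P4ha2 (ENSMUSG00000018906, chromosome 11, 54100095 to 54131665, plus strand) encodes the second alpha subunit. Its lowest, median and highest values were 64.6, 167 and 186 CPM with horse serum and 115, 128 and 167 CPM with STEM. With all libraries the log2 fold change was -0.15 (95% interval -0.63 to 0.32, adjusted p = 0.614 in edgeR). Library 6 had 64.6 CPM against 159 CPM or more in each other horse serum library, and without it P4ha2 was lower with STEM, at -0.31 ± 0.11 (SE, adjusted p = 0.0313). P4ha3 (ENSMUSG00000051048, chromosome 7, 100285520 to 100319699, plus strand), the third alpha subunit, was low in every library, between 4.23 and 6.46 CPM with horse serum and between 4.42 and 6.92 CPM with STEM. Its log2 fold change was 0.09 (95% interval -0.22 to 0.40) on 60 to 126 counts per library, and 0.18 (adjusted p = 0.296 in edgeR) without library 6, where P4ha3 was at its highest in horse serum.

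Plod1 (ENSMUSG00000019055, chromosome 4, 147909753 to 147936767, minus strand), whose product hydroxylates helical lysines, had a lowest, median and highest value of 119, 184 and 191 CPM with horse serum and of 140, 149 and 179 CPM with STEM. Plod2 (ENSMUSG00000032374, chromosome 9, 92542223 to 92608428, plus strand), whose product hydroxylates lysines of the telopeptides, had 239, 440 and 485 CPM with horse serum and 362, 379 and 430 CPM with STEM. For both genes the lowest horse serum value was that of library 6 and the 2 highest STEM values were those of libraries 7 and 8. The log2 fold change was -0.15 for Plod1 (95% interval -0.38 to 0.08, adjusted p = 0.291 in edgeR) and -0.09 for Plod2 (95% interval -0.37 to 0.20, adjusted p = 0.647). Without library 6 both were lower with STEM, Plod1 at -0.24 ± 0.060 (SE, adjusted p = 0.003) and Plod2 at -0.20 ± 0.052 (SE, adjusted p = 0.0034).

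Plod3 (ENSMUSG00000004846, chromosome 5, 136987019 to 136996648, plus strand) encodes a lysyl hydroxylase that also transfers sugars to hydroxylysine. Its lowest, median and highest values were 103, 111 and 121 CPM with horse serum, with library 6 the highest, and 114, 125 and 129 CPM with STEM, and 4 of the 6 STEM libraries were above every horse serum library. Plod3 rose by 0.15 on the log2 scale (standard error 0.049, adjusted p = 0.0249 in edgeR). This call was lost when any 1 of 6 libraries was left out (horse serum libraries 3, 4 and 5 and STEM libraries 7, 11 and 12, adjusted p from 0.0501 to 0.0667), and without library 6 the value was 0.18 (adjusted p = 0.0021). The gene Znhit1 on the opposite strand overlaps 529 of its 4519 exon bases, and it had a median of 361.5 counts per library against 1789.5 for Plod3. Whether the counting used the strand is not given in the sources used here, so reads from the shared bases cannot be told apart.

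**Figure D2:**
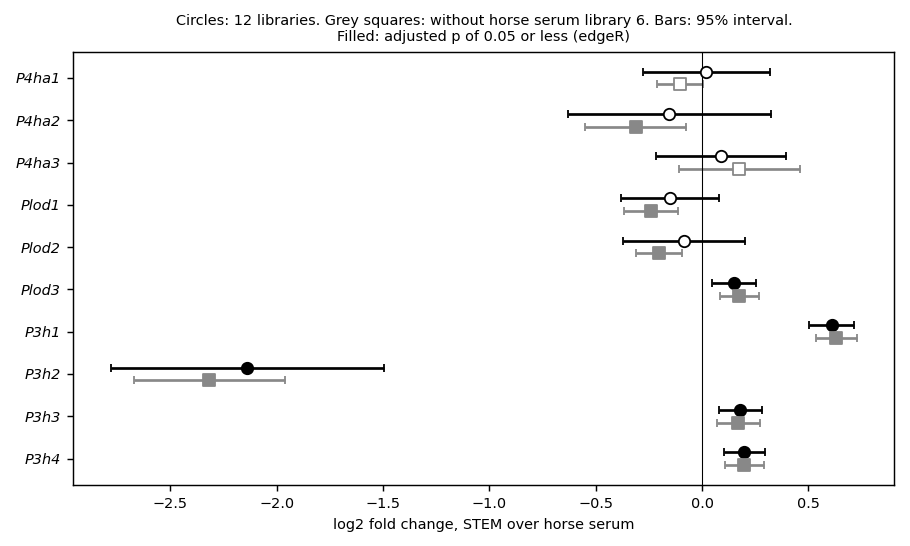
Log2 fold change of each hydroxylase gene (horizontal axis, STEM over horse serum) with all 12 libraries (circles) and without horse serum library 6 (grey squares), with 95% intervals; filled symbols have an adjusted p of 0.05 or less in edgeR. P4ha2, Plod1 and Plod2 are filled only without library 6, with values of -0.31, -0.24 and -0.20.

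To compare levels between genes, counts were divided by the length of the merged exons and the normalized library total (RPKM). With horse serum P4ha1 was the highest at 141 ± 31.0 RPKM (SD, n = 6), followed by Plod2 at 76.3 ± 16.3, P3h4 at 57.8 ± 1.72, Plod1 at 25.8 ± 4.11, Plod3 at 24.6 ± 1.51, P4ha2 at 24.5 ± 7.11, P3h1 at 17.7 ± 0.972 and P3h3 at 7.61 ± 0.213 RPKM. P3h2 at 1.94 ± 0.714 and P4ha3 at 1.61 ± 0.306 RPKM were the lowest. The ranges of libraries overlapped between neighbours in this order except between P3h4 and Plod1, P3h1 and P3h3, and P3h3 and P3h2. With STEM P3h1, at 27.0 ± 1.52 RPKM, stood between Plod3 at 27.3 RPKM and Plod1 at 23.2 ± 2.48 RPKM, with a range that overlapped those of both neighbours. P3h2 was then the lowest at 0.428 ± 0.128 RPKM, below P4ha3 in 6 of 6 libraries. With the longest annotated transcript as the length, P4ha2 moved above Plod1 in both groups (44.9 RPKM with STEM) and P3h1 was below Plod1 and Plod3 in both.

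Within each family, the share of each isoenzyme in the summed RPKM does not depend on how libraries are scaled. P4ha1 held 84.6% ± 0.956 of the alpha subunit transcripts with horse serum and 85.8% ± 0.856 with STEM (SD, n = 6), and P4ha2 14.4% ± 1.52 and 13.1% ± 1.05. Among lysyl hydroxylases Plod2 held 59.6% ± 4.74 with horse serum and 58.7% ± 0.871 with STEM, ranges that overlapped. Over the other 11 libraries the Plod2 share lay between 60.6% and 62.9% with horse serum, above the 57.5% to 59.6% of the STEM libraries, and the difference of the means went from -0.90 to -2.82 percentage points. The P4ha2 share without library 6 lay between 14.6% and 15.2%, above the 12.1% to 14.5% with STEM (difference -1.88 percentage points, against -1.26 with all libraries). In library 6 the Plod2 share was 50.1%, below every other library, and the Plod3 share there was 30.1%, above every other library, while the other 5 horse serum libraries had Plod3 shares of 17.6% to 18.5%, below the 20.6% to 23.9% with STEM. Among the 3-hydroxylases the share of P3h1 was between 63.2% and 70.3% with horse serum and between 72.6% and 76.8% with STEM, and that of P3h2 was 7.10% ± 2.46 and 1.19% ± 0.343, without overlap for either. The P3h3 share was between 27.0% and 29.1% with horse serum and between 22.3% and 26.3% with STEM. Taking the longest transcript as the length raised the P4ha2 share to 25.1% with horse serum and 23.1% with STEM.

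**Figure D3:**
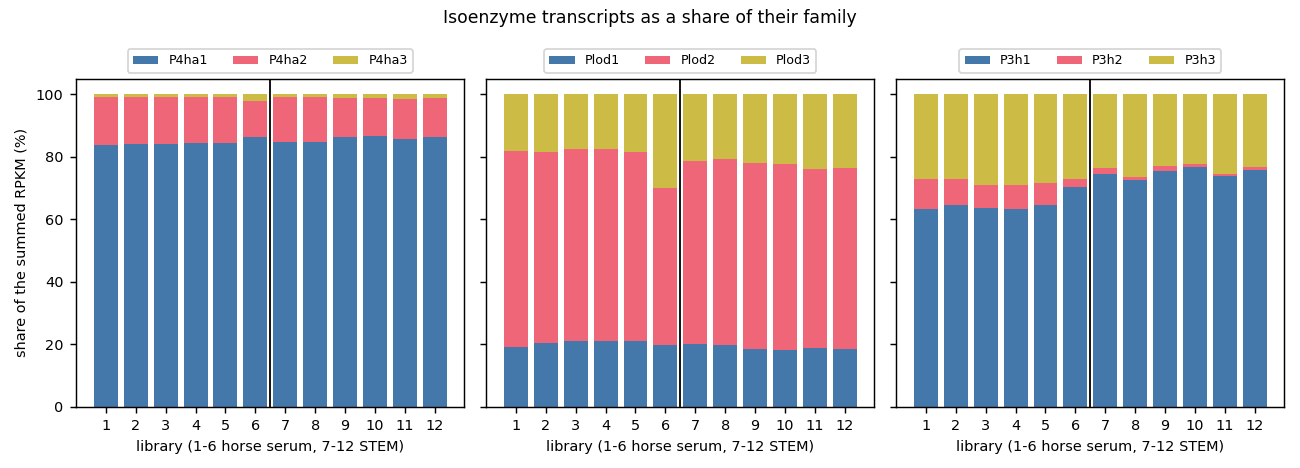
Share of each isoenzyme transcript in the summed RPKM of its family (vertical axis, percent) in each library, with libraries 1 to 6 in horse serum and 7 to 12 in STEM. The P3h2 band shrinks from 7.10% on average with horse serum to 1.19% with STEM, and library 6 differs from the other horse serum libraries by a wider Plod3 band of 30.1%.

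A list of 13 genes was examined next, of which 12 were tested. It held hydroxylase partners, procollagen chaperones and other genes of the endoplasmic reticulum such as Creb3l1. Of these, 10 were differentially expressed, all 10 higher with STEM, where 18.9% of all genes were higher. The median log2 fold change of the 12 was 0.29. Colgalt2 had 0 counts in every library. Of the partners of prolyl 3-hydroxylase 1, Ppib rose from 308 ± 22.6 to 385 ± 16.1 CPM (SD, n = 6), or by 0.32 ± 0.052 (SE) on the log2 scale (adjusted p = 0.000232 in edgeR), while Crtap was measured at 42.1 ± 3.47 and 44.6 ± 2.59 CPM (log2 fold change 0.08, 95% interval -0.05 to 0.21, adjusted p = 0.31), and the difference between them was not tested. As RPKM, P3h1 stood at 0.704 to 0.792 of the Crtap level in the horse serum libraries and at 0.917 to 1.22 of it in the STEM libraries, without overlap.

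P4hb, the shared beta subunit of prolyl 4-hydroxylase, rose from 1001 ± 77.3 to 1126 ± 59.3 CPM (SD, n = 6, log2 fold change 0.17, adjusted p = 0.0315 in edgeR). Its libraries overlapped, at 898 to 1118 CPM with horse serum and 1027 to 1193 CPM with STEM. This adjusted p was the highest among the calls of the list, which numbered 9 with upper quartile normalization. The 3 alpha subunit genes together amounted to 0.292 to 0.529 of the P4hb level in RPKM with horse serum, with library 6 the lowest, and to 0.389 to 0.447 with STEM. In the other 5 horse serum libraries this ratio was between 0.503 and 0.529, above that of every STEM library. Serpinh1, the collagen chaperone Hsp47, rose by 0.37 on the log2 scale (standard error 0.051, adjusted p = 6.81e-05) and Colgalt1, the galactosyltransferase that acts on hydroxylysine, by 0.26 (standard error 0.045, adjusted p = 0.000415). The prolyl isomerase genes Fkbp7, Fkbp14 and Fkbp10 rose by 0.60, 0.52 and 0.54 (adjusted p = 8.58e-07, 7.09e-06 and 5.37e-05 in edgeR). Creb3l1, a membrane-bound transcription factor of the endoplasmic reticulum known for collagen gene expression in bone and named here after its values were seen, rose by 1.22 (standard error 0.21, adjusted p = 0.000687), from 13.2 ± 3.92 to 31.0 ± 8.57 CPM. Without library 6 the list had 11 calls, 10 higher and Tmem38b lower, where 26.3% of all genes were higher.

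The substrates and the later steps of collagen assembly were examined in the same way. Of 11 tested fibrillar and type IV collagen chains, 6 were differentially expressed, all 6 higher with STEM, where 18.9% of all genes were higher. The median log2 fold change of the 11 was 0.32. Those with the lowest p-values were Col5a3, Col5a1 and Col11a2, with log2 fold changes of 0.57, 0.71 and 0.77 (adjusted p = 1.72e-05, 7.58e-05 and 0.000373 in edgeR). Col11a2 had few reads, at most 122 counts in any library. Col3a1, Col5a2 and Col1a2, the most abundant of these chains by mean CPM in either medium, were not called. Their log2 fold changes were 0.09, -0.03 and 0.15 (adjusted p = 0.278, 0.727 and 0.124 in edgeR). Leaving out library 6, Col1a2 was called higher (0.23, adjusted p = 0.000522), but Col3a1 and Col5a2 were not called. Of 11 tested genes of procollagen processing and crosslinking, 7 were differentially expressed (36.4% among all genes), 5 higher and 2 lower, with a median of 0.32. Loxl4, the proteinase Bmp1 and the N-propeptidase Adamts2 had the lowest p-values, with rises of 0.73, 0.69 and 0.56 on the log2 scale (standard errors 0.054, 0.055 and 0.055). The 2 genes of this list that fell were the lysyl oxidase family genes Loxl2 and Loxl3, named after their values were seen. Their log2 fold changes were -0.62 and -0.15 (adjusted p = 0.0167 and 0.0406 in edgeR). With no filter on low counts neither was called, and with total counts only, or without some single libraries, 1 gene of the list was called lower. Without library 6 the collagen list had 9 calls, all 9 higher, and the processing list 9, 7 higher and 2 lower. Of all genes, 26.3% were then higher and 24.5% lower. In both fits the medians of these lists lay above that of the 10 hydroxylase genes, which was 0.05 with all libraries and 0.03 without library 6.

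**Figure D4:**
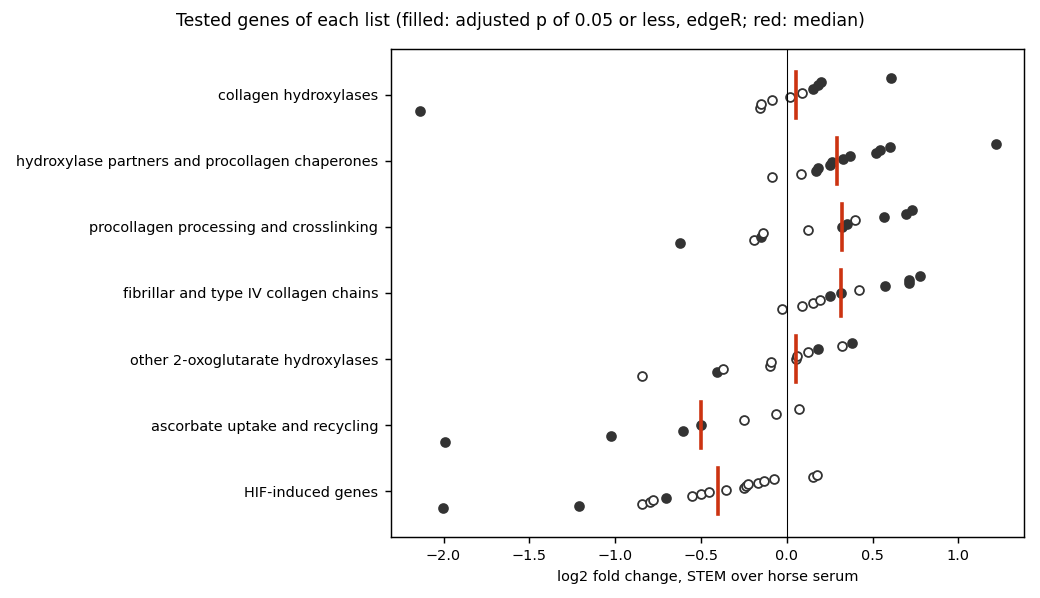
Log2 fold change (horizontal axis, STEM over horse serum, all 12 libraries) of each tested gene in 7 gene lists, one row a list; points are genes, filled at an adjusted p of 0.05 or less in edgeR, and the red line is the list's median. The hydroxylase genes lie around a median of 0.05 with P3h2 at -2.14 and P3h1 at 0.61, the 10 filled genes of the partner and chaperone list all lie above 0, and the HIF-induced genes have a median of -0.40 with 3 filled points.

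Genes of the ascorbate supply and other hydroxylases of the same chemistry were examined next. Of 7 tested genes of ascorbate uptake and recycling, 4 were differentially expressed, all 4 lower with STEM, where 17.4% of all genes were lower, and the median log2 fold change was -0.50. Slc2a3, a glucose transporter that also takes up oxidized ascorbate, went from 15.9 ± 5.37 to 3.97 ± 1.10 CPM (SD, n = 6, log2 fold change -1.99, adjusted p = 0.000146 in edgeR). Cyb561 and Gsto2 were lower with log2 fold changes of -1.03 and -0.60 (adjusted p = 0.000384 and 0.000611). Slc23a2, the ascorbate transporter itself, had 56.6 ± 13.4 CPM in horse serum and 59.5 ± 3.34 CPM in STEM (log2 fold change 0.07, 95% interval -0.18 to 0.32), and without library 6 it was called higher with STEM (0.21 ± 0.056, SE, adjusted p = 0.00375 in edgeR). The calls of this list numbered 6 without library 6, Slc23a2 higher and 5 lower, where 24.5% of all genes were lower. Of 11 tested hydroxylases with substrates other than collagen, 3 were differentially expressed (36.4% among all genes), with Jmjd4 and Ogfod1 higher (0.38 and 0.18) and Asph, an aspartyl and asparaginyl hydroxylase, lower (-0.41, adjusted p = 0.0273). With no filter on low counts, or without some single libraries such as horse serum library 1, Asph was not called. Among these other hydroxylases the calls without library 6 also numbered 6, 2 higher and 4 lower, where 50.8% of all genes were called.

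HIF-induced genes were examined because P4ha1, P4ha2, Plod1 and Plod2 belong to the known targets of this factor. The list held 18 other genes, all tested, of which Egln3 is also in the list of other hydroxylases and Slc2a1 in that of ascorbate uptake. With all libraries 3 were differentially expressed, all 3 lower with STEM, Ndrg1, Car9 and Mxi1 (log2 fold changes of -1.21, -2.002 and -0.70). Of all genes, 36.4% were called and 17.4% were lower. The median log2 fold change of the 18 was -0.40. In library 6, 17 of the 18 genes were below their range in the rest of the horse serum group, against 33.1% of all genes tested. Without library 6 the calls numbered 17 of 18, 16 of them lower and Pfkfb4 higher with STEM, with a median of -0.59. Of all genes, 50.8% were then called and 24.5% were lower.

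Averaged over these 18 genes, log2 CPM was between 7.54 and 7.81 in horse serum libraries 1 to 5, 5.91 in library 6, and between 6.72 and 7.27 in the STEM libraries, where libraries 8 and 7 were the highest at 7.27 and 7.15. P4ha1, P4ha2, Plod1 and Plod2 had the same 2 libraries, 7 and 8, as their highest in the STEM group and library 6 as their lowest of all 12. P3h1 and Plod3 did not share this order, and library 6 was their highest horse serum library. In size, P4ha2 in library 6 was at 64.6 CPM against a mean of 171 CPM in the other horse serum libraries, P4ha1 at 326 against 632, Plod2 at 239 against 446 and Plod1 at 119 against 186 CPM. Myotube markers and HIF-induced genes moved together in library 6, and the part of either in the hydroxylase levels was not tested.

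**Figure D5:**
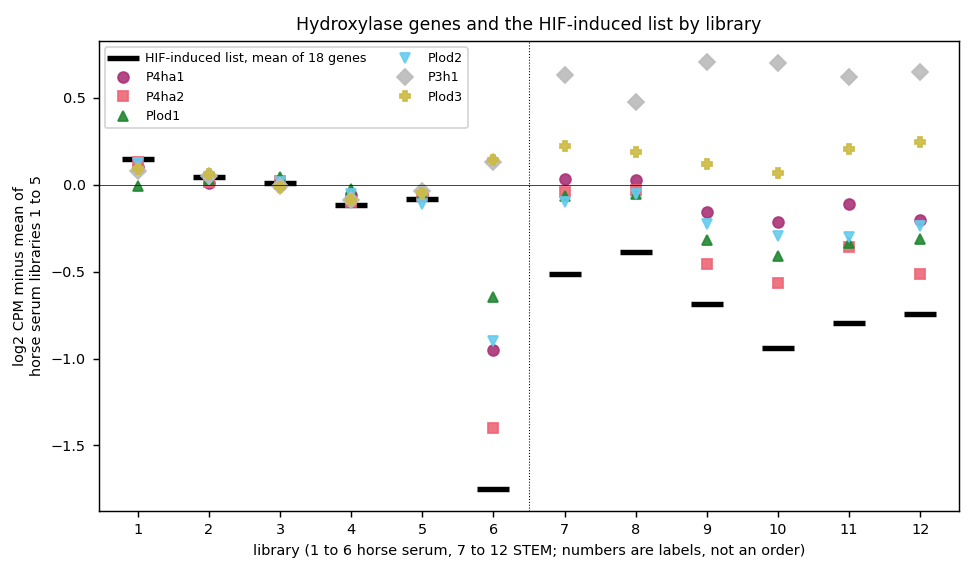
Log2 CPM of 6 hydroxylase genes (symbols) and the mean of 18 HIF-induced genes (black bars) in each library, as the difference from the mean of horse serum libraries 1 to 5 (vertical axis, log2); library numbers are labels and have no order. In library 6 the black bar and P4ha1, P4ha2, Plod1 and Plod2 lie below 0 while P3h1 and Plod3 lie above it, and in the STEM group libraries 7 and 8 carry the highest values of those 4 genes.

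Likeness of pattern was measured as the distance between 2 genes over the 12 libraries after each gene's log2 CPM was scaled to mean 0 and SD 1, where a smaller value is more alike. The gene nearest to P4ha2 among the 14175 tested was Pfkp, a phosphofructokinase of glycolysis, at 0.241, and the nearest to P4ha1 was Ldha, lactate dehydrogenase A, at 0.516. Plod2 lay nearest to Epm2a at 0.462 and then to Pfkp at 0.488, and Plod1 to Mgarp at 0.643. The median distance to the 18 HIF-induced genes was 1.08 for Plod2, 1.13 for P4ha2, 1.263 for Plod1 and 1.67 for P4ha1, against medians of 4.77 to 4.78 to all tested genes for these 4 members. P3h1, Plod3, P3h4, P3h3 and P4ha3 had median distances of 4.84 to 5.90 to the same 18 genes. Over the 11 libraries without library 6, the medians were 1.32 for Plod2, 1.46 for P4ha2, 1.28 for Plod1 and 2.13 for P4ha1, and P3h2 moved from 2.85 to 1.51. The points of these distances are the same libraries, so the difference between the groups enters them.

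P3h1 lay nearest to Sema3g at 0.526 and Gadd45b at 0.542, and P3h2 nearest to Tspan5 at 0.568 and Wapl at 0.59. P3h3 lay nearest to 4921525O09Rik at 0.956, P3h4 to Cnih1 at 0.773, Plod3 to Itpripl2 at 1.06 and P4ha3 to Maz at 1.25. Within the family P4ha2 and Plod2 were the closest pair at 0.683, and the nearest member to P3h1 was P3h3 at 1.90.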

How the data were processed

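Total RNA of 12 C2C12 myotube libraries was depleted of ribosomal RNA and made into stranded libraries (TruSeq Stranded Total RNA with Ribo-Zero Gold) for sequencing on a NovaSeq. The authors deposited raw read counts per Ensembl gene on genome build GRCm38, without normalization. The submitters' processing notes list STAR 2.7.3a, featureCounts 1.6.3 and DESeq2 1.26.0, with no settings, and the strand setting and annotation release are not given in the sources used here.

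Groups were taken from the sample titles. Symbols, coordinates and exon lengths came from GENCODE release M21, which held 55141 of the 55487 listed genes, and 0.0358% of the counts fell on the others. Counts were tested with edgeR 4.0.16 (TMM, filterByExpr, robust glmQLFit and glmQLFTest) in R 4.3.3, with Benjamini-Hochberg adjustment over all 14175 tested genes and a threshold of 0.05. The study itself used DESeq2, which was run here as an alternative (version 1.42.0), as was limma-voom (limma 3.58.1). CPM and RPKM used TMM-normalized totals, and log2 CPM a prior count of 2. The tests were first run on simulated counts with known changes. Over the 30 pairs of libraries within a group, chi-square per degree of freedom was between 3.54 and 76.6, so none was treated as a repeat deposit.

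Named genes were every member, at most the 3 called genes with the lowest p-values of each other list, direct complex partners of a member, and the 2 genes nearest in pattern to each member. Some genes outside this rule are marked as named after their values were seen. The members and the gene lists were chosen with earlier results of these data known. The alternatives were other scalings, filters and tools, and leaving out each library. The distances and list counts without library 6 and the order by longest transcript were added after the data were examined.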

Additional observations from a re-analysis of the deposited data

Results flagged for a closer look

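The highest or the lowest library of each group of 6 was compared with its nearest neighbour, as a share of the group's whole range, for the CPM of the 10 members and for 3 isoenzyme shares, 26 groups in all. A gap above 0.625 of the range was found in 7 of them, and each of the 7 was horse serum library 6 at the low end. For a single group chance flags about 1 in 20. The 7 share 1 library, and the shares were computed from the same members, so their number cannot be set against that rate. P4ha1 was at 326 CPM in that library and at 606 CPM in the nearest one, P4ha2 at 64.6 and 159 CPM, Plod1 at 119 and 179 CPM, and Plod2 at 239 and 413 CPM. The share of P4ha2 among the alpha subunits was 11.3% against 14.6% in the nearest library, that of Plod2 among lysyl hydroxylases 50.1% against 60.6%, and that of P3h2 among 3-hydroxylases 2.44% against 7.16%. The same library was the lowest of the horse serum group for the summed myotube markers and for 17 of 18 HIF-induced genes, against 33.1% of all genes. What set it apart was not tested.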

How the results depend on the processing

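The number of hydroxylase genes called stayed at 5 under the 3 other scalings, with at least 10 counts in every library, with DESeq2 and with limma-voom. It was 3 with no filter on low counts, where P3h3 (log2 fold change 0.17, adjusted p = 0.068) and Plod3 (0.15, adjusted p = 0.0686) were not called, and between 4 and 8 with each library left out, the 8 being without horse serum library 6. P3h1, P3h2 and P3h4 were called under every alternative run. Ranges with each library left out were 0.59 to 0.64 for P3h1, -2.32 to -2.005 for P3h2, 0.16 to 0.19 for P3h3, 0.18 to 0.23 for P3h4, -0.10 to 0.069 for P4ha1, -0.31 to -0.090 for P4ha2, 0.01 to 0.18 for P4ha3, -0.24 to -0.12 for Plod1, -0.20 to -0.034 for Plod2 and 0.13 to 0.18 for Plod3. The sign of P4ha1 turned with upper quartile normalization (log2 fold change -0.0010, adjusted p = 0.996) and without horse serum library 6 (-0.10), STEM library 7 (-0.017) or STEM library 8 (-0.0068). Without horse serum library 6 (and in no other alternative) P4ha2 (-0.31), Plod1 (-0.24) and Plod2 (-0.20) were called, and the cause was not tested. The list of other hydroxylases gave 5 calls with total counts only, and between 2 and 6 with each library left out, the 6 being without library 6. HIF-induced genes gave between 3 and 17 calls with each library left out, the 17 also without library 6, and 2 with no filter on low counts. The other list counts stayed within 1.5 times the main count, although the lower calls of the processing list went from 2 to 0 with no filter on low counts. The 3 other scalings shifted the median over all tested genes by -0.0202 to 0.0191. No paired analysis was possible because the labels give no pairing between libraries of the 2 groups. Depth limits P3h2 and P4ha3, which had at most 152 counts in any library.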
